A study of Homo sapiens with 2 samples.

Results

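The mRNAs of 8 hepatocyte lineage transcription factors were described by RNA immunoprecipitation sequencing (RIP-seq) in the HUH7 line, which was established from a human hepatocellular carcinoma. The members were the rows of the deposited table named HNF4A, FOXA1, FOXA2, FOXA3, CEBPA, CEBPB, NR1H4 and PROX1, and all 8 were found among 14914 listed features. One library held RNA recovered with CSTF2 (IP) and 1 held total input RNA of the same line (Input), and the series asked which RNAs CSTF2 may bind. CSTF2 is the subunit with which the cleavage stimulation factor, a complex that helps to form mRNA 3′ ends, contacts RNA. Per the labels, both libraries came from HUH7 cells of liver origin with no treatment named, and a mock immunoprecipitation was not used here. With 1 library in each group there was no replicate error, so no p-value or SD could be given and every difference describes these 2 libraries only.

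Hepatocyte identity is kept by a small set of transcription factors that bind one another's genes and a shared set of liver promoters and enhancers. FOXA proteins are forkhead factors that open chromatin at liver genes early in development, HNF4A and NR1H4 are nuclear receptors, the C/EBP proteins are basic leucine zipper factors, and PROX1 is a homeobox protein of early hepatoblasts. Their mRNAs, like most others, are cleaved and polyadenylated, a step at which CSTF2 contacts U- and GU-rich RNA downstream of the cut while the AAUAAA signal upstream of it is read by another complex.

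The 3′ ends annotated for these mRNAs are shown because CSTF2 works beside them. Each line gives the last 30 bases of the longest protein-coding transcript of the gene in GENCODE release 29 (GRCh38), 5′ to 3′ on the transcript strand, with the poly(A) signal AATAAA or ATTAAA in capitals where it occurs.
HNF4A (chr20:44434567-44434596, plus strand): tgcttAATAAAcccatatcaaaaccataaa
FOXA1 (chr14:37589984-37590013, minus strand): ggactttaAATAAAtcaaatgttaacaaaa
FOXA2 (chr20:22581005-22581034, minus strand): caacattttattAATAAAattttcagacat
FOXA3 (chr19:45873768-45873797, plus strand): aatcATTAAAggtaccgtgtccgcctctta
CEBPA (chr19:33299934-33299963, minus strand): atatctataatataaacatatcaaagtcaa
CEBPB (chr20:50192660-50192689, plus strand): gaatggttacaaagccttttgggggcagta
NR1H4 (chr12:100564384-100564413, plus strand): gtgaatacAATAAAacaccttctataagta
PROX1 (chr1:214041473-214041502, plus strand): caggcttaactttatttagccctgaaactt
AATAAA stood in 4 of the 8 windows and ATTAAA in 1, the window of FOXA3. Neither hexamer was found in the windows of CEBPA, CEBPB and PROX1, which says only that these letters are absent from the last 30 bases of the annotated transcript. Only the transcript strand was searched, and AATAAA was taken first where both could occur. Among the longest transcripts of 7616 protein-coding genes past the filter described below, 54.5% held AATAAA in the same window and a further 13.2% held only ATTAAA. The RNA downstream of the cut, where CSTF2 binds, was not used here.

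Assigned reads numbered 3220045 in the IP library and 9517885 in the Input library, as recovered from the deposited values. Levels are given in RPKM, which corrects reads for library depth and gene length. Differences are log2((IP RPKM + 1)/(Input RPKM + 1)), which understates the change of low genes, and ratios of RPKM carry an exact (Clopper-Pearson) 95% interval from the recovered reads. The intervals cover counting error only and treat reads as independent molecules, which PCR reads without molecular identifiers are not. Mitochondrial genes took 61.8% of the IP reads and 61.6% of the Input reads. The CSTF2 mRNA itself had 487 RPKM in the IP library and 6.97 RPKM in the Input library. All 9 hepatocyte markers (ALB, AFP, APOA1, APOB, TTR, SERPINA1, FGB, TF and AHSG) were listed, with a summed level of 684 RPKM in the IP library and 708 RPKM in the Input library. Single markers ranged from 1.43 (TTR) to 353 RPKM (FGB) in the IP library and from 1.34 (AHSG) to 311 RPKM (FGB) in the Input library. FGB, TF and AHSG had a higher RPKM in the IP, and the other hepatocyte markers a lower one. The progenitor and bile duct markers KRT19, SOX9, EPCAM and SPP1 summed to 154 RPKM in the IP library and 141 RPKM in the Input library, with KRT7 not listed. Stromal markers summed to 7.74 RPKM in the IP library and 8.56 RPKM in the Input library (4 of 6 listed) and blood markers to 8.44 RPKM in the IP library and 7.25 RPKM in the Input library (3 of 6 listed). None of the 5 endothelial markers was listed.

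All 8 mRNAs had a higher RPKM in the IP than in the Input, by 1.10-fold (NR1H4) to 2.42-fold (CEBPB). Centring the libraries on the median of all features turned NR1H4 to a lower value, and scaling by the trimmed mean of log ratios turned NR1H4, FOXA3 and CEBPA. A filter on low values kept features whose RPKM averaged 1 or more over the libraries, which all 8 members passed. Of the 9880 features kept, 60.4% were also higher in the IP by any amount. The members' median log2 ratio was 0.49, against 0.17 over those features, and 7 of the 8 lay above 0.17, the value that splits all features evenly. One member, CEBPB, passed 2-fold in the higher direction, as did 9.88% of all features. None passed it in the lower direction, where 6.83% of all features did. On the log2(RPKM + 1) scale CEBPB, FOXA1 and FOXA2 were 3 members past 1.5-fold higher, against 26.0% of all features. PROX1, with an RPKM ratio of 1.52, fell short of 1.5-fold on that scale. Centred on the median, the shares past 2-fold were 6.92% higher and 9.55% lower, and no member was past 2-fold. The counting interval lay above 1 for 5 members, HNF4A, FOXA1, FOXA2, CEBPB and PROX1, and for 36.1% of all features. Together the 8 genes had 1095 IP reads and 2099 Input reads, or 0.0340% and 0.0221% of the assigned reads, a ratio of 1.54 (1.43 to 1.66). That ratio was 1.56 (1.41 to 1.73) without PROX1, which held the most reads, and 1.51 (1.40 to 1.62) without CEBPB. More RNA of a gene in the IP and less of other RNAs cannot be told apart in such shares.

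**Figure D1:**
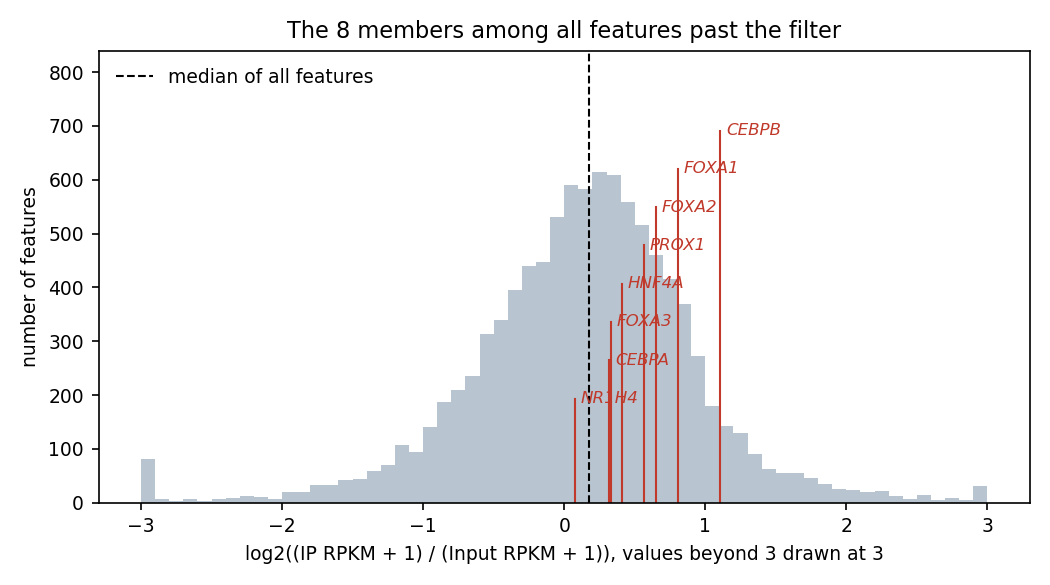
Histogram of the log2 ratio of IP over Input for all 9880 features past the filter, with a red line for each of the 8 members (line heights only separate the names) and a dashed line at the median of all features, 0.17. NR1H4 is the only member left of the dashed line, and CEBPB is the only one beyond 1, a 2-fold difference.

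The nuclear receptor HNF4A, a regulator of a large part of hepatocyte gene expression, lies on chromosome 20 from 44355700 to 44434596 (plus strand, 7311 bases of exon). It had 158 IP reads (6.71 RPKM), against 334 Input reads (4.80 RPKM). That was 1.40-fold higher (1.15 to 1.69), a log2 ratio of 0.41. HNF4A therefore sat nearer to the median of all features than to a 2-fold difference, at percentile 64.5 of the 9880 features. Its paralog HNF4G had 1.03 RPKM in the IP library and 1.16 RPKM in the Input library, and the HNF4A ratio was 1.57 times that of HNF4G with an interval that includes 1 (0.849 to 3.03).

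NR1H4 encodes FXR, the nuclear receptor for bile acids, and lies on chromosome 12 from 100473708 to 100564413 (plus strand). It had 16 IP reads (1.44 RPKM), against 43 Input reads (1.31 RPKM). The ratio was 1.10 (0.578 to 1.99), a log2 ratio of 0.08, the lowest of the 8. At this depth neither a difference from the Input nor one from the other members except CEBPB was detectable for NR1H4.

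The FOXA genes encode forkhead pioneer factors. FOXA1 (chromosome 14, 37589984 to 37596059, minus strand) had 95 IP reads (7.41 RPKM), against 144 Input reads (3.80 RPKM). It was 1.95-fold higher (1.49 to 2.54), with a log2 ratio of 0.81, the second of the 8. FOXA2 (chromosome 20, 22581005 to 22585455, minus strand) had 149 IP reads (17.8 RPKM), against 272 Input reads (10.98 RPKM). It was 1.62-fold higher (1.32 to 1.98), with a log2 ratio of 0.65. FOXA3 (chromosome 19, 45863989 to 45873797, plus strand) had 12 IP reads (1.70 RPKM), against 24 Input reads (1.15 RPKM). Its ratio of 1.48 had an interval that includes 1 (0.673 to 3.07), and its log2 ratio was 0.33. The 3 paralogs were thus all higher in the IP as deposited (FOXA3 turned with the trimmed mean scaling), with FOXA2 the most abundant of them in both libraries and FOXA3 the least. The ratio of FOXA1 was 1.20 times that of FOXA2 (0.856 to 1.69) and 1.32 times that of FOXA3 (0.600 to 3.04), so no order among the 3 was detectable.

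CEBPA and CEBPB encode C/EBP alpha and C/EBP beta, which bind the same DNA motif. C/EBP alpha is linked to the quiescent, metabolic hepatocyte and C/EBP beta to the acute phase response and regeneration. Both genes have a single exon. CEBPB (chromosome 20, 50190734 to 50192689, plus strand) had 67 IP reads (10.6 RPKM), against 82 Input reads (4.40 RPKM). It was 2.42-fold higher (1.72 to 3.38), with a log2 ratio of 1.11, at percentile 92.1 of all features and 96.0 of protein-coding ones. CEBPA (chromosome 19, 33299934 to 33302564, minus strand) had 98 IP reads (11.6 RPKM), against 227 Input reads (9.06 RPKM). It was 1.28-fold higher with an interval that includes 1 (0.996 to 1.62), and its log2 ratio was 0.32. The ratio of CEBPB was 1.89 times that of CEBPA (1.24 to 2.88). In the IP the 2 mRNAs therefore stood at similar levels, while in the Input CEBPA stood above CEBPB with intervals that did not overlap.

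Among the other C/EBP genes, CEBPG, whose product pairs with other C/EBP proteins, had 11.4 RPKM in the IP library and 11.3 RPKM in the Input library, a ratio of 1.01 (0.836 to 1.20). CEBPD, taken here after its value was seen, had 13.8 RPKM in the IP library and 9.65 RPKM in the Input library. The ratio of CEBPB was 2.40 times that of CEBPG (1.63 to 3.53) and 1.68 times that of CEBPD (1.10 to 2.57), whereas the ratio of CEBPA was 0.890 times that of CEBPD (0.625 to 1.27). CEBPB thus had the highest ratio of these 4 genes, and CEBPA could not be told from CEBPD by counting error.

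PROX1, on chromosome 1 from 213983181 to 214041502 (plus strand, 8928 bases of exon), was the member with the most reads. It had 500 IP reads (17.4 RPKM), against 973 Input reads (11.5 RPKM). It was 1.52-fold higher (1.36 to 1.69), with a log2 ratio of 0.56. Its interval was the narrowest of the 8 and lay wholly between 1 and 2-fold.

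**Figure D2:**
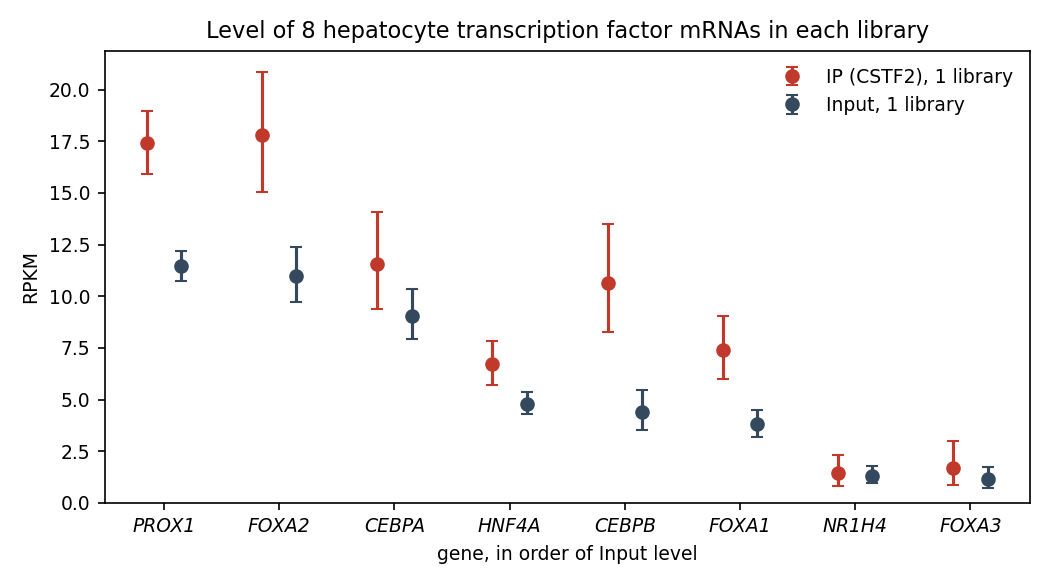
RPKM of each member in the IP library (red, left of each pair) and the Input library (dark, right), in order of Input level, with bars for the 95% Poisson interval of the reads (counting error only, 1 library each). PROX1, FOXA2, CEBPB and FOXA1 have IP intervals wholly above their Input intervals, HNF4A has one just above, and CEBPA, NR1H4 and FOXA3 overlap.

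By level, the order in the IP was FOXA2, PROX1, CEBPA, CEBPB, FOXA1, HNF4A, FOXA3 and NR1H4, and in the Input PROX1, FOXA2, CEBPA, HNF4A, CEBPB, FOXA1, NR1H4 and FOXA3. In the IP, neighbours in that order overlapped by their counting intervals except at 2 steps, PROX1 over CEBPA and HNF4A over FOXA3. In the Input the 2 clear steps were CEBPA over HNF4A and FOXA1 over NR1H4. By RPKM, PROX1 and FOXA2 stood first and NR1H4 and FOXA3 last in both libraries, but in the Input the intervals of FOXA2 and CEBPA overlapped. Members with no clear step between neighbours were not all alike, since CEBPA lay wholly above FOXA1 and HNF4A in the IP and wholly below PROX1 in the Input.

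By ratio, 28 pairs of members were compared, each with an unadjusted 95% interval of the ratio of their ratios. The interval excluded 1 for 6 pairs. CEBPB exceeded FOXA2 by 1.49 times (1.001 to 2.22), PROX1 by 1.59 times (1.11 to 2.26), HNF4A by 1.73 times (1.17 to 2.55), CEBPA by 1.89 times and NR1H4 by 2.20 times (1.09 to 4.55). FOXA1 exceeded CEBPA by 1.53 times (1.06 to 2.20). The other 22 pairs could not be told apart by counting error, and no pair has a replicate check.

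**Figure D3:**
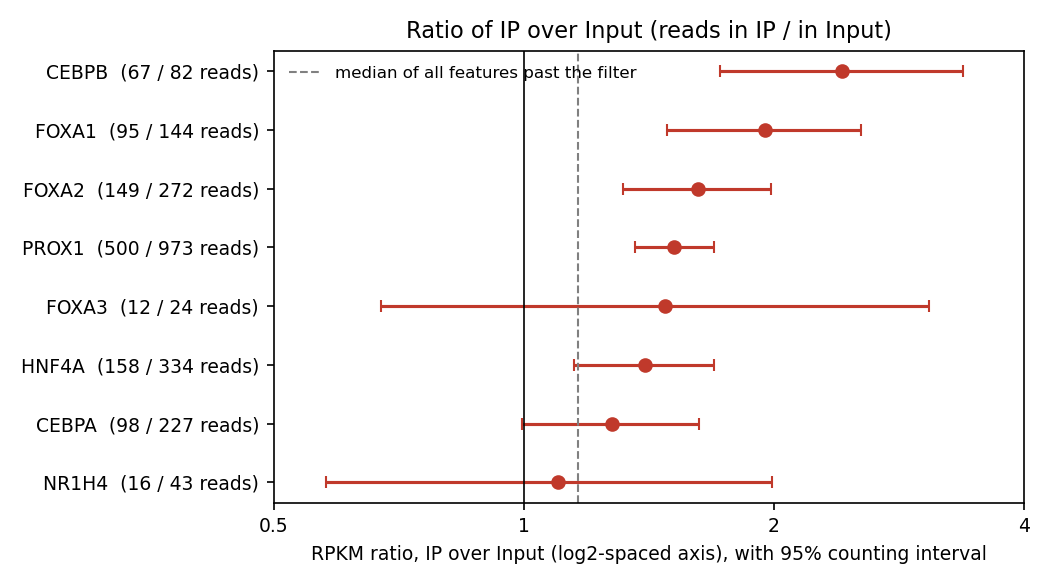
Ratio of IP RPKM over Input RPKM for each member on a log2-spaced axis, with bars for the exact 95% counting interval and, in the labels, the IP reads followed by the Input reads. The solid line marks equal levels and the dashed line the median ratio of all features past the filter, 1.16; 5 of the 8 intervals lie right of the solid line, and those of CEBPA, FOXA3 and NR1H4 cross it.

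Neighbouring transcripts were checked because no protocol says whether the strand of the RNA was preserved, and reads of overlapping genes cannot be told apart. CEBPB shares 231 exon bases with the antisense gene CEBPB-AS1, which had 10 IP reads and 11 Input reads, against the 67 and 82 of CEBPB. CEBPB-AS1 had a ratio of 2.69 (1.02 to 6.97). The CEBPB ratio was 0.899 times that of CEBPB-AS1 with an interval that includes 1 (0.325 to 2.52). PROX1 shares 171 exon bases with PROX1-AS1, which had 27 IP reads and 71 Input reads. FOXA1 shares 16 exon bases with TTC6, which had 6 reads in each library. LINC00261 lies 2362 bases from FOXA2 on the same strand, without exon overlap, and had 12.1 RPKM in the IP library and 11.1 RPKM in the Input library. The FOXA2 ratio was 1.48 times that of LINC00261 (1.14 to 1.92), so this pair of neighbours differed. SYMPK, which encodes the 3′ end processing scaffold symplekin, begins 698 bases from FOXA3 on the opposite strand. SYMPK had 13.1 RPKM in the IP library and 1.26 RPKM in the Input library, and the FOXA3 ratio was 0.142 times that of SYMPK (0.0631 to 0.306). CEBPA-AS1, taken by its name and with its overlap with CEBPA not computed, had 12 IP reads and 42 Input reads. Its ratio was 0.845 (0.405 to 1.63). The other neighbours were picked by position, SYMPK after its value was seen.

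Properties of the transcripts that did not choose the members were set beside their ratios. Across 7616 protein-coding genes, the log2 ratio went with GC content (Spearman rho 0.27) with transcript length (rho 0.40) and with the number of exons (rho 0.40), and little with the length of the 3′ UTR (rho 0.09) or the number of TGTG words per kilobase of it (rho 0.08, 7280 genes, overlaps counted). These are descriptions across genes of the same 2 libraries, and genes are not independent replicates. Split into quintiles by GC, those genes had a median log2 ratio of -0.07 in the lowest quintile and 0.41 in the highest. CEBPB and CEBPA had the highest GC of the members, 66.2% and 65.9%, and NR1H4 and PROX1 the lowest, 40.6% and 40.7%. The 2 GC-rich C/EBP mRNAs thus lay at opposite sides of the median of their quintile, with log2 ratios of 1.11 and 0.32, as did FOXA2 (58.2%, 0.65) and FOXA3 (60.8%, 0.33). Of the 8 members, 6 lay above the median of their own quintile, and CEBPA and FOXA3 lay below. PROX1, with 0.56 where its quintile had -0.07, is also long, at 8498 bases with a 3′ UTR of 5668 bases, and NR1H4, with 0.08, has 2884 and 924 bases. The 3′ UTRs held 2.16 TGTG words per kilobase (NR1H4) to 12.2 (FOXA3), with 3.24 in CEBPB, against a median of 6.27 over all genes. By the same transcripts CEBPA and CEBPB have 1 exon, the FOXA genes 2, PROX1 5, HNF4A 10 and NR1H4 11, against a median of 9 over all genes. The 2 members of 1 exon thus had the highest ratio of the 8 (CEBPB) and the second lowest (CEBPA), and NR1H4, with the most exons, had the lowest. The part of GC content, length and exon number in the members' ratios was not tested.

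**Figure D4:**
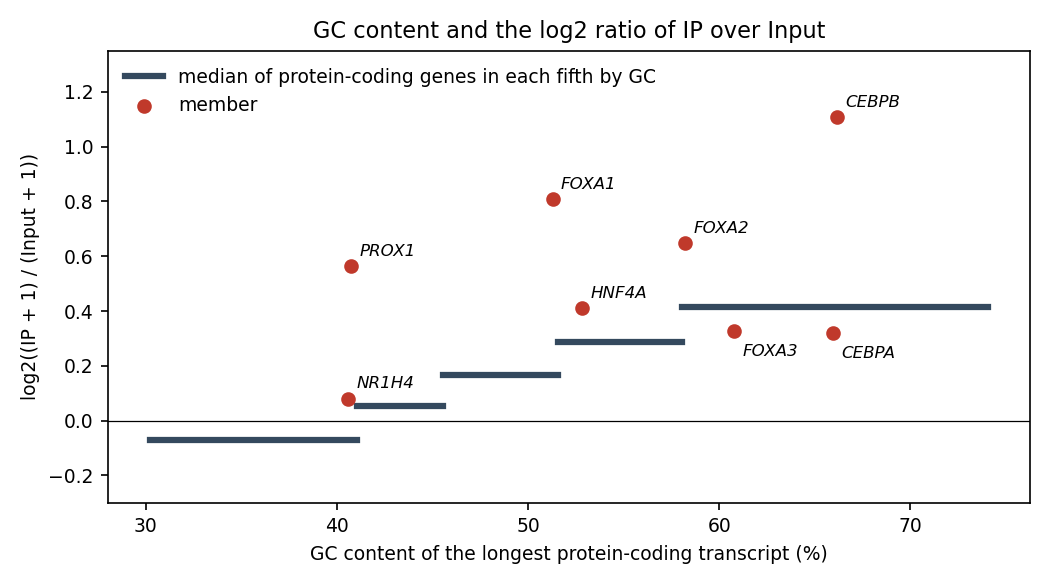
Log2 ratio of IP over Input (vertical) against GC content of the longest protein-coding transcript (horizontal) for the 8 members (red points), with dark bars for the median of all protein-coding genes in each quintile by GC. The bars climb from -0.07 to 0.41, and 6 of the 8 points lie above the bar of their quintile.

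Other genes of the same regulatory network were read from 5 lists, some of whose genes stand in more than 1 list, against the median log2 ratio of 0.17 and the shares of all features given above. Of 46 other liver transcription factors, 41 were listed and 29 had a mean of at least 1 RPKM. One of the 29 passed 2-fold higher and none passed 2-fold lower, and their median log2 ratio was 0.37. NR2F6, an orphan nuclear receptor, had 14.5 RPKM in the IP library and 4.28 RPKM in the Input library, 3.39-fold higher (2.60 to 4.42). NR2F1 was 2.13-fold (1.59 to 2.85) and CREB3L3, a liver factor bound to the endoplasmic reticulum, 1.85-fold higher (1.70 to 2.00), both under 2-fold on the pseudocount scale. HHEX, a homeobox factor of the early liver bud, went the other way with 4.43 RPKM in the IP library and 8.99 RPKM in the Input library, a ratio of 0.493 (0.336 to 0.704). YAP1 had a ratio of 0.701 (0.486 to 0.989) and ESRRA one of 0.455 (0.187 to 0.964), the latter on 8 IP reads and 52 Input reads. ESRRA had 0.820 RPKM in the IP library and 1.80 RPKM in the Input library. It thus passed the filter only through the Input, where it is high.

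The paralogs of the members, the wider forkhead and C/EBP families with HNF4G, had 14 of 40 genes past the filter, 20 being listed. One passed 2-fold in the higher direction and none in the lower, with a median of 0.33. FOXP4 was 2.68-fold higher (2.14 to 3.35), with FOXJ2 at 2.55-fold (1.72 to 3.78) and FOXK1 at 2.33-fold (1.72 to 3.14), the last pair under 2-fold on the pseudocount scale. FOXJ2 had 2.52 RPKM in the IP library and 0.985 RPKM in the Input library, and FOXK1 had 1.94 and 0.835 RPKM. Both thus passed the filter only through the IP, where they are high. FOXM1, a forkhead factor of dividing cells, had 9.45 RPKM in the IP library and 11.3 RPKM in the Input library, and its interval reached 1 (ratio 0.833, 0.689 to 1.0003). FOXN2 at 0.817 and DDIT3 at 0.912 had intervals that include 1. No paralog past the filter had an interval wholly below 1, but the share of all features with such an interval was not computed. For 8 of the 14 it lay above 1, as it did for 36.1% of all features.

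In the pathway of FXR, the product of NR1H4, 16 of 28 genes passed, 3 passed 2-fold higher and none passed 2-fold lower, with a median of 0.45. Of the 3, KMT2D at 3.29-fold (2.87 to 3.78) and KMT2C at 2.62-fold (2.23 to 3.07) encode histone methyltransferases that serve nuclear receptors. The other was ABCC3, for a transporter of the basolateral membrane, at 4.36-fold (2.90 to 6.62). ABCC3 had 2.00 RPKM in the IP library and 0.459 RPKM in the Input library, so it passed the filter only through the IP, where it is high, and its place in the count was set by the filter. RXRA, the partner of FXR, had 1.84 RPKM in the IP library and 1.09 RPKM in the Input library, 1.69-fold higher (1.22 to 2.32). KLB, the co-receptor for FGF19, had a ratio of 0.756 (0.600 to 0.947), PRMT1 one of 0.849 (0.713 to 1.01) and SLC51B one of 0.985 on 4 and 12 reads. The FXR targets NR0B2, CYP7A1 and ABCB11 were not listed. Among coregulators of HNF4A and the C/EBPs, 17 of 22 passed, 4 passed 2-fold higher and none passed 2-fold lower, with a median of 0.58. The acetyltransferase gene EP300 was 3.87-fold higher (3.35 to 4.48), the chromatin remodeller gene SMARCA4 3.04-fold (2.80 to 3.31), and TRIB1, whose product brings C/EBP alpha to degradation, 3.21-fold (1.97 to 5.23). TRIB1 had 2.85 RPKM in the IP library and 0.889 RPKM in the Input library, so it too passed the filter only through the IP and its call was set by it. The other one was ARID1A, for a subunit of the same remodelling complexes, at 2.28-fold (2.02 to 2.58), named after its value was seen. MED1 at 0.841, HDAC3 at 0.878 and NCOA1 at 1.20 had intervals that include 1.

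The hepatocyte mRNAs that these factors are known to drive had the lowest median of the lists, 0.00 (-0.000753 unrounded). All 28 that were listed, of 39, passed the filter, and none of them passed 2-fold higher while 3 passed 2-fold lower. APOA2, an apolipoprotein of high-density lipoprotein, had 38.1 RPKM in the IP library and 120.9 RPKM in the Input library, 3.17-fold lower by a ratio of 0.315 (0.258 to 0.382). TTR, the thyroid hormone carrier transthyretin, had 1.43 RPKM in the IP library and 4.25 RPKM in the Input library (ratio 0.336, 0.156 to 0.647). APOC3 had 0 IP reads and 18 Input reads (2.18 RPKM), so it passed the filter only through the Input, where it is high, and its call as lower was set by it. With the IP placed at 3 reads it was within 2-fold on the pseudocount scale, which leaves 2 lower. The highest were coagulation factor F5 at 1.64-fold (1.38 to 1.96), ASGR1 at 1.55-fold (1.09 to 2.19) and APOM at 1.60-fold (0.867 to 2.88). The factors and their target mRNAs thus had medians of 0.49 and 0.00 in the same libraries. The difference between the lists was not tested, and their transcript lengths and exon numbers were not compared.

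**Figure D5:**
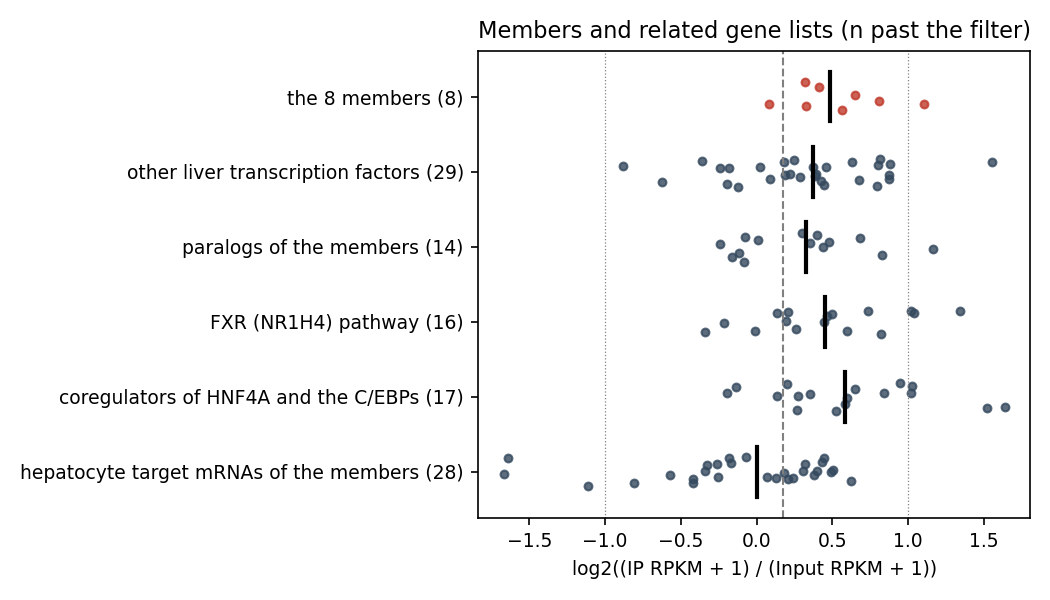
Log2 ratio of IP over Input for the 8 members (red, top row) and for the genes of 5 related lists past the filter (dark points, spread vertically only for legibility), with a black bar at each list's median, a dashed line at the median of all features (0.17) and dotted lines at 2-fold. The members' median is 0.49, and that of the hepatocyte target mRNAs, 0.00, is the lowest of the rows.

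The features nearest in level over the 2 libraries, by distance on the log2(RPKM + 1) scale and leaving out clone names, were named for 3 members. HNF4A stood nearest to KMT5A, with 6.65 RPKM in the IP library and 4.82 RPKM in the Input library (distance 0.013), and MCM8 (distance 0.016). CEBPB stood nearest to ZBTB7A, with 10.5 RPKM in the IP library and 4.42 RPKM in the Input library (distance 0.015), and RBBP6 (distance 0.030). NR1H4 stood nearest to NDUFA9 (distance 0.0012) and PPP2R3C (distance 0.0065). With 2 libraries, such nearness describes level only.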

How the data were processed

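The deposited file of the authors lists, per its header, an RPKM value per library (IP and Input) and the authors' log2 fold change between them. Per the submitters' processing notes, FastQC 0.12.0 and the build hg38 were used; which aligner, counter and annotation were used is not given in the sources used here. The deposited RPKM values are the measurement, and the deposited log2 fold change served only to recover reads. For 14913 of 14914 features (all but PGK1), a gene length was found at which reads of the IP and of the Input were whole within 0.01 reads. That length equalled the GENCODE release 29 exon length for 7 of the 8 members; for NR1H4 it was 3460 bases, against 3627. Every feature with recovered reads reached 1.05 CPM in at least 1 library, so low genes are not listed. Of 12660 features with a matching GENCODE symbol, 11451 had the release 29 exon length. The recovery was also run on reads simulated at the recovered lengths, whose outcome is not given here and is not used as support. Python 3.11.15, numpy 2.4.6, scipy 1.17.1, pandas 2.3.3 and matplotlib 3.10.9 were used. The filter was a mean of 1 RPKM and the pseudocount 1 RPKM; all 8 members passed. The alternatives were other pseudocounts, filters, thresholds and scalings. Named genes were the members, the 3 highest and 3 lowest of each list and NR0B2, RXRA, CEBPG and CSTF2. The nearest features in level were named too. Others are said to be chosen by position, by name or after their values were seen. A further gene that the rule names is not reported here. The members and lists were chosen with earlier results of these data known.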

Additional observations from a re-analysis of the deposited data

How the results depend on the processing

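No paired analysis was possible because each group holds 1 library. Counts rest on the pseudocount, the scaling and the threshold, and levels of FOXA3 and NR1H4 on few reads. Scaling to reads outside mitochondrial genes moved log2 ratios by 0.01, centring on all features by -0.17, centring on protein-coding features by -0.15, and the trimmed mean by -0.33 over all features and -0.24 over those past the filter. The last, the protein-coding centring, the counting interval and the medians without CEBPB and without FOXA3, the member of fewest reads, were added after the data were seen. The 1 member at least 2-fold higher, CEBPB, became 0 with a pseudocount of 5 RPKM, with each of these centrings and trimmed means, and at 4-fold, 3 at 1.5-fold (26.0% of all features) and 5 by the counting interval; 0 were lower in every setting. The members' median (0.49) was 0.15 with the trimmed mean over all features, 0.25 over features past the filter, 0.31 and 0.34 when centred on all and on protein-coding features, 0.41 without CEBPB and 0.61 with a filter of 5 RPKM, which left 6 members. CEBPB ranged from 0.73 to 1.25, FOXA1 from 0.48 to 0.95 and FOXA2 from 0.32 to 0.69. With the trimmed mean over all features HNF4A was 0.079, FOXA2 0.32, PROX1 0.23, FOXA3 -0.0038, CEBPA -0.01 and NR1H4 -0.25. PROX1 was 0.39 centred on all features and 0.32 with the trimmed mean past the filter; NR1H4 was negative in 4 of 7 settings. No share of all features was computed with other pseudocounts or filters, at 4-fold, or with any scaling but the centring on all features. Counts of members and of list genes in those settings therefore have no baseline beside them. Among the lists, with a pseudocount of 0.1 RPKM, 5 other liver factors were higher and 2 lower, 3 paralogs higher and 7 coregulators higher. With 5 RPKM, 0 paralogs, 0 FXR genes and 2 coregulators were higher and 1 target mRNA lower. Centred on all features, and with the trimmed mean over all features, 1 other liver factor was lower and 0 paralogs, 1 FXR gene and 2 coregulators were higher. Target mRNAs that were lower numbered 3 with that centring and 4 with that trimmed mean. A filter of 5 RPKM left 0 FXR genes higher and 1 target mRNA lower. At 1.5-fold, 9 other liver factors, 3 paralogs, 6 FXR genes, 8 coregulators and 1 target mRNA were higher. At that threshold 2 other liver factors and 4 target mRNAs were lower, with no share of all features computed for that direction. At 4-fold, 0 genes of any list were higher or lower on the log2(RPKM + 1) scale, ABCC3 being 4.36-fold higher by the ratio of RPKM alone. The causes were not tested.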
